A study of Mus musculus with 20 samples.

Results

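The genes described here are 10 activity-induced early genes that lie outside the Fos and Jun (AP-1) families, namely Egr1, Egr3, Nr4a1, Nr4a2, Nr4a3, Arc, Npas4, Ier2, Ier3 and Ier5. They were taken by symbol from the 78258 genes of the count table, each matched 1 identifier, and 9 of them had enough reads to be tested, all but Npas4. RNA came from lumbar dorsal root ganglia (DRG, which house the cell bodies of sensory neurons) at levels 4 to 6 of 10 male mice, 1 day after the sciatic nerve was cut on 1 side. The 5 conditional knockout (cKO) mice were Ahr fl/fl Thy1CRE-ERT2/EYFP: both copies of Ahr, which encodes the aryl hydrocarbon receptor, are floxed, and a tamoxifen-inducible Cre is driven by the Thy1 promoter, so deletion is limited to cells in which that promoter is active. The 5 control mice were Ahr f/f or f/+ per the protocol, while the genotype field and library names give FF or ff for all 5 and the titles call them Wildtype. These labels differ from each other, and the mice are called control here. Every mouse of both genotypes received tamoxifen at 100 mg/kg a day for 5 days from 17 weeks of age, and the lesion was made 4 weeks later. Each mouse gave 1 contralateral and 1 ipsilateral library, which makes 4 groups of 5 libraries. The contralateral ganglia belong to lesioned mice and are not ganglia of uninjured animals, and per the labels the ganglia were dissociated before the RNA was collected.

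Immediate early genes are transcribed within minutes of a stimulus from factors already present in the cell, with no need for new protein. In neurons, calcium entry and growth factor signals reach them through kinases that act on CREB, on serum response factor with its ternary complex partners, and on MEF2 factors. Many of their transcripts are short-lived, so a level measured a day after a stimulus is not the level of the first wave. Egr1 and Egr3 encode zinc-finger transcription factors, and the NR4A genes encode orphan nuclear receptors that act without a known natural ligand. Arc encodes a cytoskeleton-associated protein that regulates glutamate receptor trafficking at synapses. Npas4 encodes a neuronal transcription factor of the bHLH-PAS family, which also holds the aryl hydrocarbon receptor. Ier2, Ier3 and Ier5 encode small proteins induced by growth factors and stress.

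Libraries held 76.2 to 118.5 M counts (M, mega), and mitochondrial genes took 0.916% to 1.33% of them. Levels are TMM-normalised CPM, counts scaled to a common library total. Contralaterally, Ahr itself averaged 24.2 ± 2.10 CPM in control libraries and 20.4 ± 0.536 CPM in cKO ones (SD, n = 5), a log2 difference of -0.25 (edgeR adjusted p 0.103). On the ipsilateral side it had 34.4 ± 2.86 and 31.9 ± 2.94 CPM, a log2 difference of -0.11 (edgeR adjusted p 0.99996), so neither difference passed the test in whole ganglia. The contralateral ranges did not overlap, at 21.3 to 27.2 CPM in control and 19.5 to 21.0 CPM in cKO libraries. With the lesion Ahr rose by 0.50 on the log2 scale in control mice (edgeR adjusted p 4.7e-06) and by 0.65 in cKO mice (adjusted p 1.5e-07). All 18 sensory neuron markers averaged at least 1 CPM, with a summed level of 10952 to 12445 CPM in control contralateral libraries. In bulk tissue, fewer cells of a type and less RNA per cell cannot be told apart.

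For the NR4A genes the promoters are shown first, since the receptors share a sequence feature there. The 250 bases before the RefSeq start site of Nr4a1 (GRCm38.p6, chr15:101266596-101266845, plus strand) and of Nr4a2 (GRCm38.p6, chr2:57124004-57124253, minus strand) are printed 5′ to 3′, with each short form of the cAMP response element, TGACG or its reverse complement CGTCA, in capitals.
Nr4a1: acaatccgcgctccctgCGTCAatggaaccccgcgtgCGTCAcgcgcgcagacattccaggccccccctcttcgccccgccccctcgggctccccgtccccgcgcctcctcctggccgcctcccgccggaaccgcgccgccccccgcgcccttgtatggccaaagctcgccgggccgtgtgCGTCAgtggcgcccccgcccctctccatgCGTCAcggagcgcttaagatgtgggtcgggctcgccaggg
Nr4a2: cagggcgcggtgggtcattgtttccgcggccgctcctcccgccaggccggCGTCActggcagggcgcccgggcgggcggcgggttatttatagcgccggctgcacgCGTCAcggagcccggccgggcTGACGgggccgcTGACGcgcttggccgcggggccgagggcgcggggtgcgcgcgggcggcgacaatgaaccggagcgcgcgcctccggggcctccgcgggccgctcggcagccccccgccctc
Both stretches hold 4 of these, which begin at -233, -213, -69 and -40 from the start in Nr4a1 and at -200, -144, -123 and -111 in Nr4a2. Windows of 300 bases, from 250 before to 50 after the start, were available for 6 of the 10 genes (Ier3, Ier5, Npas4 and the NR4A genes). At least 4 short forms were found in 0.231% of 32851 such windows and in 3 of these 6, those of the NR4A genes. Each NR4A window holds exactly 4, so the cut-off equals their own number and the share is a description and not a test. At least 1 was in 20.8% of all windows and in 4 of the 6, the NR4A genes and Npas4. The full element TGACGTCA was in 1.79% of all windows and in 0 of the 6, searched on both strands as were all motifs. GCGTG, the core of the xenobiotic response element that the aryl hydrocarbon receptor binds, was in 4 of the 6 windows, again the NR4A genes and Npas4, against 32.4% of all windows. A run of these letters is a description of the sequence and not a binding site.

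One day after the lesion, 6 of the 9 tested genes were higher in ipsilateral than in contralateral ganglia of control mice (Egr3, Nr4a2, Arc, Ier2, Ier3 and Ier5) and 5 in cKO mice, the same genes without Nr4a2. None of the 9 fell by the edgeR test in either genotype. Called means an adjusted p under 0.05 in edgeR's quasi-likelihood test over all 28564 genes tested. Of all genes tested, 13.8% were called higher in control and 16.2% in cKO, and 11.4% in both, against 5 of the 9 genes here. The median log2 fold change of the 9 genes was 0.49 in control and 0.48 in cKO, beside -0.00 and -0.03 over all genes. Ipsilateral values lay wholly above contralateral values for 5 of the 9 genes in control (Egr3, Arc, Ier2, Ier3 and Ier5), where 11.3% of all genes did so, and for 4 in cKO (Arc, Ier2, Ier3 and Ier5), where 11.9% did.

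**Figure D1:**
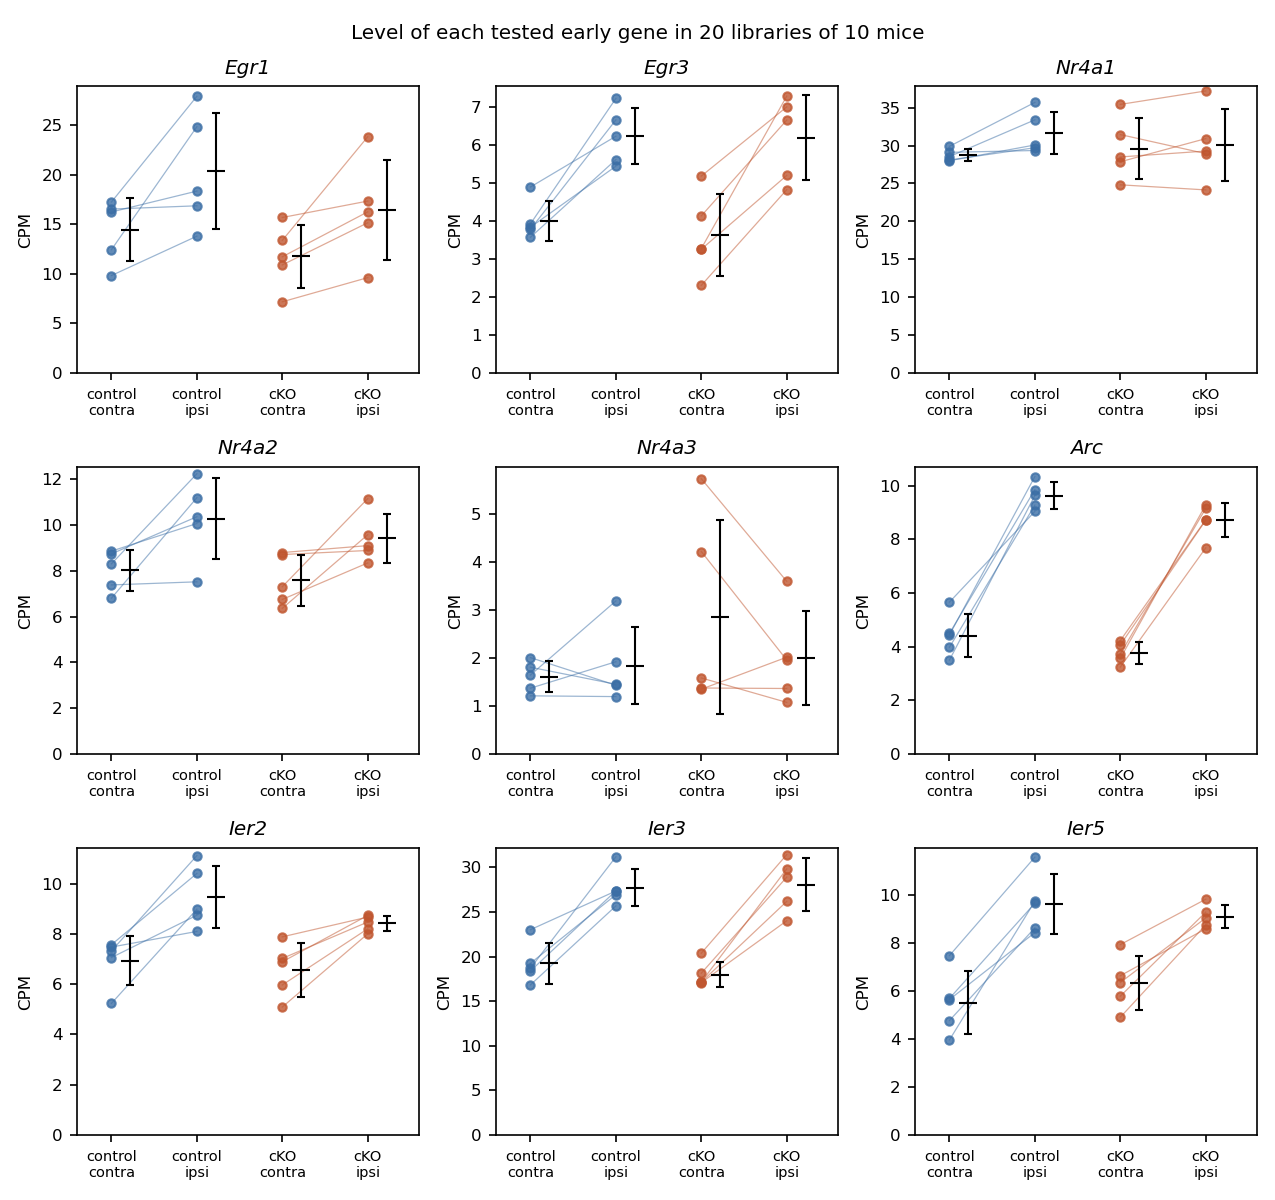
TMM-normalised CPM (y axis) of each tested early gene in the 20 libraries, 1 panel per gene, with 1 point per library, the 4 groups of 5 libraries on the x axis lines that join the 2 libraries of a mouse, and black bars for the mean and SD. Arc and Ier3 show separate contralateral and ipsilateral values in both genotypes, while Nr4a1 and Nr4a3 overlap.

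Arc (ENSMUSG00000022602.15) had the highest fold change of the 9 genes in both genotypes. In control mice its 5 contralateral libraries had 3.50, 3.98, 4.44, 4.49 and 5.66 CPM and its 5 ipsilateral libraries 9.04, 9.27, 9.64, 9.85 and 10.3 CPM. The groups did not overlap, and the means were 4.41 ± 0.804 and 9.63 ± 0.507 CPM (SD, n = 5). Arc thus rose by 1.12 on the log2 scale (SE 0.0976, edgeR adjusted p 1.701e-08). In cKO mice the contralateral values were 3.24, 3.56, 3.73, 4.06 and 4.23 CPM and the ipsilateral values 7.68, 8.71, 8.73, 9.15 and 9.28 CPM. These groups did not overlap either, with means of 3.76 ± 0.395 and 8.71 ± 0.629 CPM and a rise of 1.21 (SE 0.0983, edgeR adjusted p 4.898e-09). Every one of the 10 mice had more Arc on the lesioned side.

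Npas4 (ENSMUSG00000045903.10), the neuronal calcium-responsive factor, was at the edge of detection and did not pass the filter on low counts. Its counts summed to 18 over the 5 control contralateral libraries, 19 over the control ipsilateral, 18 over the cKO contralateral and 42 over the cKO ipsilateral ones. The group means were 0.0379 ± 0.0281, 0.0430 ± 0.0126, 0.0415 ± 0.0328 and 0.0849 ± 0.0564 CPM (SD, n = 5), and the ranges of all 4 groups overlapped. Contralateral libraries of control mouse H63 and cKO mouse H64 had 0 counts, which allows up to 0.0367 and 0.0380 CPM at a limit of 3 counts. Fitted in edgeR without that filter, it passed in none of the 5 comparisons, with log2 differences of 0.20 for injury in control (SE 0.694, adjusted p 0.974), 0.99 for injury in cKO (SE 0.650, adjusted p 0.385), 0.14 between genotypes contralaterally (adjusted p 1) and 0.93 ipsilaterally (SE 0.646, adjusted p 0.912). The standard errors are several times those of Arc, and the higher cKO ipsilateral total came with libraries that ranged from 0.018 to 0.149 CPM.

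Egr3 (ENSMUSG00000033730.5) rose in both genotypes. Control contralateral libraries had 3.57, 3.78, 3.84, 3.93 and 4.90 CPM, and control ipsilateral libraries 5.44, 5.62, 6.23, 6.66 and 7.23 CPM. The sides did not overlap in control mice, and Egr3 went from 4.00 ± 0.516 to 6.24 ± 0.737 CPM (SD, n = 5), a log2 fold change of 0.64 (SE 0.166, edgeR adjusted p 0.00594). In cKO mice the contralateral values were 2.31, 3.26, 3.28, 4.14 and 5.18 CPM and the ipsilateral ones 4.83, 5.20, 6.66, 7.01 and 7.29 CPM. Here the sides overlapped, because the contralateral library of H95 (5.18 CPM) lay above the ipsilateral library of H61 (4.83 CPM). The cKO means were 3.63 ± 1.08 and 6.20 ± 1.11 CPM, a log2 fold change of 0.77 (SE 0.167, edgeR adjusted p 0.00136), and within each of the 10 mice the ipsilateral side was higher.

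Egr1 (ENSMUSG00000038418.9) had about the same fold change in both genotypes and a wide spread between mice. Control contralateral libraries had 9.83, 12.4, 16.2, 16.5 and 17.3 CPM and ipsilateral libraries 13.8, 16.9, 18.3, 24.8 and 27.9 CPM. In cKO mice they had 7.18, 10.9, 11.7, 13.4 and 15.7 CPM contralaterally and 9.62, 15.2, 16.3, 17.3 and 23.8 CPM ipsilaterally. Ranges overlapped in both genotypes, and the lowest mouse was the same on both sides, H65 in control and H61 in cKO. Means were 14.5 ± 3.19 and 20.4 ± 5.84 CPM in control and 11.8 ± 3.15 and 16.4 ± 5.09 CPM in cKO (SD, n = 5). The log2 fold change was 0.49 (SE 0.251, edgeR adjusted p 0.160) in control and 0.48 (SE 0.252, adjusted p 0.164) in cKO, so neither passed. With the mouse as a replicate block, which compares the sides within each mouse, both passed, at 0.48 (edgeR adjusted p 0.0176) and 0.47 (adjusted p 0.0190), and all 10 mice were higher ipsilaterally. In that fit 8 of the 9 early genes were called higher in control, where 14.1% of all genes were, and 7 in cKO, where 16.4% were.

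Among the nuclear receptors, Nr4a1 (Nur77, ENSMUSG00000023034.8) was the most abundant and moved least. Its control contralateral libraries had 28.0, 28.1, 28.5, 29.1 and 29.9 CPM and its ipsilateral libraries 29.3, 29.7, 30.1, 33.4 and 35.7 CPM. Its cKO libraries had 24.8, 27.9, 28.5, 31.4 and 35.4 CPM contralaterally and 24.2, 28.9, 29.3, 30.9 and 37.2 CPM ipsilaterally, and the sides overlapped in both genotypes. The means were 28.7 ± 0.788 and 31.6 ± 2.78 CPM in control, a log2 fold change of 0.14 (SE 0.0957, edgeR adjusted p 0.311). In cKO they were 29.6 ± 4.01 and 30.1 ± 4.70 CPM, a log2 fold change of 0.02 (SE 0.0956, edgeR adjusted p 0.893). With the mouse as a block the control comparison passed at 0.14 (edgeR adjusted p 0.0353), as it did with the 10 control libraries alone at 0.16 (adjusted p 0.0368), and 8 of 10 mice were higher ipsilaterally.

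Nr4a2 (Nurr1, ENSMUSG00000026826.14) lay near the threshold. In control mice its libraries ran from 6.81 to 8.86 CPM contralaterally and from 7.52 to 12.2 CPM ipsilaterally, with means of 8.02 ± 0.892 and 10.3 ± 1.76 CPM (SD, n = 5). That log2 fold change of 0.36 (SE 0.119, edgeR adjusted p 0.0273) passed, and it no longer passed without mouse H62 (0.27, adjusted p 0.144) or H96 (0.31, adjusted p 0.0976). In cKO mice it ran from 6.36 to 8.80 and from 8.35 to 11.2 CPM, with means of 7.59 ± 1.12 and 9.42 ± 1.07 CPM and a log2 fold change of 0.31 (SE 0.119, edgeR adjusted p 0.0533) that did not. It passed there with the mouse as a block (0.32, edgeR adjusted p 0.0440). All 10 mice were higher ipsilaterally, and the interaction test below gives the comparison of the 2 responses.

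Nr4a3 (Nor1, ENSMUSG00000028341.10) was the scarcest tested gene and varied most between libraries. Control contralateral libraries had 1.21, 1.37, 1.65, 1.81 and 2.01 CPM and ipsilateral libraries 1.196, 1.43, 1.45, 1.92 and 3.19 CPM. In cKO mice they had 1.35, 1.38, 1.58, 4.22 and 5.74 CPM contralaterally and 1.08, 1.37, 1.96, 2.02 and 3.598 CPM ipsilaterally. The high contralateral values were those of H95 and H100, and the highest ipsilateral values those of H97 and H100. The log2 fold change was 0.20 (SE 0.426, edgeR adjusted p 0.789) in control and -0.52 (SE 0.419, adjusted p 0.390) in cKO, and 3 of 10 mice were higher ipsilaterally.

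All 3 IER genes rose in both genotypes without overlap of the sides. Ier3 (IEX-1, ENSMUSG00000003541.7), a stress-induced regulator of apoptosis, had 16.8, 18.4, 18.7, 19.2 and 23.0 CPM in control contralateral and 25.7, 26.9, 27.4, 27.4 and 31.2 CPM in control ipsilateral libraries. In cKO mice it had 17.1, 17.1, 17.2, 18.1 and 20.4 CPM against 24.0, 26.2, 28.9, 29.8 and 31.4 CPM. Its log2 fold change was 0.53 (SE 0.0807, edgeR adjusted p 3.416e-05) in control and 0.64 (SE 0.0809, adjusted p 2.798e-06) in cKO. The sides were thus apart by more than the spread between mice in each genotype.

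Ier5 (ENSMUSG00000056708.6), a regulator tied to phosphatase 2A and the heat shock response, had 3.96, 4.77, 5.65, 5.69 and 7.48 CPM in control contralateral and 8.44, 8.63, 9.66, 9.74 and 11.6 CPM in control ipsilateral libraries. Its cKO values were 4.91, 5.79, 6.36, 6.64 and 7.94 CPM contralaterally and 8.59, 8.76, 9.05, 9.29 and 9.83 CPM ipsilaterally. The lowest ipsilateral library of each genotype lay above its highest contralateral one. The log2 fold change was 0.80 (SE 0.138, edgeR adjusted p 1.530e-04) in control and 0.53 (SE 0.138, adjusted p 0.00598) in cKO. Ier2 (ENSMUSG00000053560.6), a nuclear protein, ran from 5.24 to 7.57 CPM and from 8.10 to 11.1 CPM in control mice, and from 5.09 to 7.88 CPM and from 8.003 to 8.73 CPM in cKO mice. The rise was 0.45 on the log2 scale (SE 0.110, edgeR adjusted p 0.00358) in control and 0.36 (SE 0.110, adjusted p 0.0172) in cKO, and the latter no longer passed without mouse H61 (0.33, adjusted p 0.0613).

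**Figure D2:**
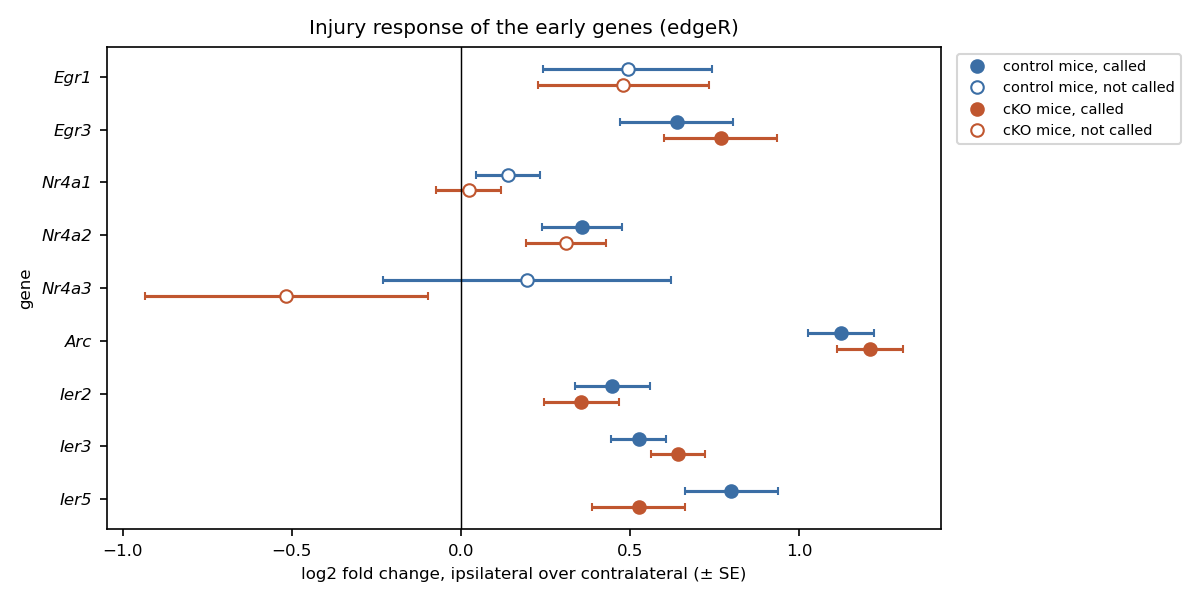
Log2 fold change of ipsilateral over contralateral ganglia for the 9 tested early genes, in control and cKO mice, as edgeR estimates with bars of 1 standard error, filled where called and open where not. Arc lies farthest above 0, at 1.12 and 1.21, and the wide bars of Nr4a3 cross 0 in control.

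Compared per kilobase of exon, so that genes of different length can be set side by side, Ier3 was the most abundant of the 10, at a mean of 20.6 ± 4.61 CPM per kb over all 20 libraries (SD). Nr4a1 followed at 8.56 ± 0.945, Ier2 at 5.16 ± 0.977 and Egr1 at 3.51 ± 1.16 CPM per kb. Ier5, Nr4a2 and Arc came next, at 2.33 ± 0.628, 2.17 ± 0.393 and 2.17 ± 0.882 CPM per kb, a spread that includes the difference between the sides. Their order depended on the side: in control contralateral ganglia Arc was lowest, at 1.44 ± 0.263 against 1.68 ± 0.400 for Ier5 and 1.98 ± 0.220 CPM per kb for Nr4a2 (SD, n = 5). In control ipsilateral ganglia Arc was highest, at 3.15 ± 0.166 against 2.93 ± 0.381 for Ier5 and 2.53 ± 0.433 CPM per kb for Nr4a2. Below them came Egr3 at 1.14 ± 0.337, Nr4a3 at 0.347 ± 0.201 and Npas4 at 0.0125 ± 0.00931 CPM per kb. Arc, with the highest fold change, stayed below Ier3, Nr4a1, Ier2 and Egr1 in mean level in each of the 4 groups.

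Between genotypes, 0 of the 9 genes were called on either side by edgeR. In contralateral ganglia, where 0.0735% of all genes were called, the log2 differences of cKO minus control ran from -0.30 for Egr1 to 0.82 for Nr4a3, and the smallest adjusted p was 0.230. Only Arc had an unadjusted edgeR p under 0.05 (-0.23, unadjusted p 0.0292), as did 17.5% of all genes. In ipsilateral ganglia, where 0.007% of genes were called, the differences ran from -0.31 for Egr1 to 0.11 for Nr4a3 and 0 genes had an unadjusted p under 0.05, against 2.36% of all genes. DESeq2 also called 0 of the 9 on either side.

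Whether the lesion response differed between genotypes was tested as an interaction, the response in cKO minus that in control. It was called for 0 of the 9 genes and for 0% of all 28564 genes, with 0 of the 9 and 9.80% of all genes at an unadjusted p under 0.05. DESeq2 called 0 of the 9 too. For Arc the difference was 0.09, with an approximate 95% interval of -0.20 to 0.38, and for Ier3 it was 0.12 (-0.12 to 0.36). Ier5 had -0.27 (-0.69 to 0.14), Ier2 -0.09 (-0.42 to 0.24) and Egr3 0.13 (-0.37 to 0.63). The intervals were -0.76 to 0.74 for Egr1, -0.40 to 0.17 for Nr4a1 and -0.40 to 0.31 for Nr4a2. For Nr4a3 the interval ran from -1.98 to 0.55, the widest of the 9. Responses per mouse, ipsilateral minus contralateral log2 CPM, gave two-sided exact permutation p-values of 0.111 (Ier5) to 0.976 (Egr1) over the 9 genes, unadjusted, where 5 against 5 mice can reach 0.00794. Ier5 responses averaged 0.82 ± 0.284 in control and 0.54 ± 0.217 in cKO mice, and those of Arc 1.14 ± 0.287 and 1.21 ± 0.138 (SD, n = 5).

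**Figure D3:**
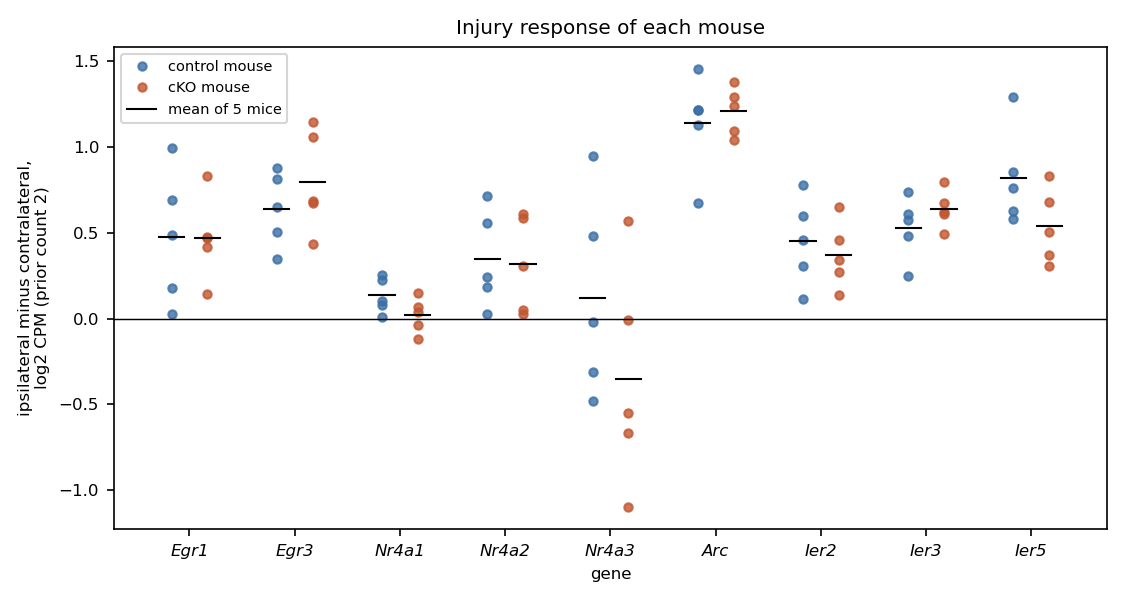
Response of each tested early gene in each mouse, ipsilateral minus contralateral log2 CPM, with 1 point per mouse, control and cKO side by side, and the group mean. Points of Arc, Egr1, Egr3, Nr4a2 and the IER genes lie above 0 in all 10 mice, while those of Nr4a3 do so in 3.

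In all, 7 of the 9 genes (Egr1, Egr3, Nr4a2, Arc, Ier2, Ier3 and Ier5) were higher on the ipsilateral side in every one of the 10 mice, as were 12.5% of all genes tested. The genes differed in how far the 2 ganglia of a mouse moved together. For Egr1 the SD of single libraries within a group was 0.416 log2 CPM, and the SD of the response within a genotype was 0.326, which is 0.554 of what unrelated sides would give. That ratio was 0.451 for Nr4a1, 0.653 for Egr3 and 0.655 for Nr4a3. For Arc it was 0.981 and for Nr4a2 0.976, so their 2 sides varied about as unrelated libraries do.

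Single libraries stood out in several genes. The ipsilateral library of cKO mouse H100 was the highest of its group for 6 of the 9 genes, and the contralateral library of control mouse H96 for 5. Mouse H61 was the lowest cKO mouse for Egr1 and Egr3 on both sides. After each library was centred on its group mean, 28 of the 36 pairs of genes had a positive correlation over the 20 libraries, as a description of libraries that share depth, mice and dissection. The highest were Ier2 with Ier5 (r 0.761), Egr1 with Egr3 (0.733) and Nr4a1 with Nr4a3 (0.679). Arc was below 0 in 6 of its 8 pairs, down to -0.530 with Ier3.

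**Figure D4:**
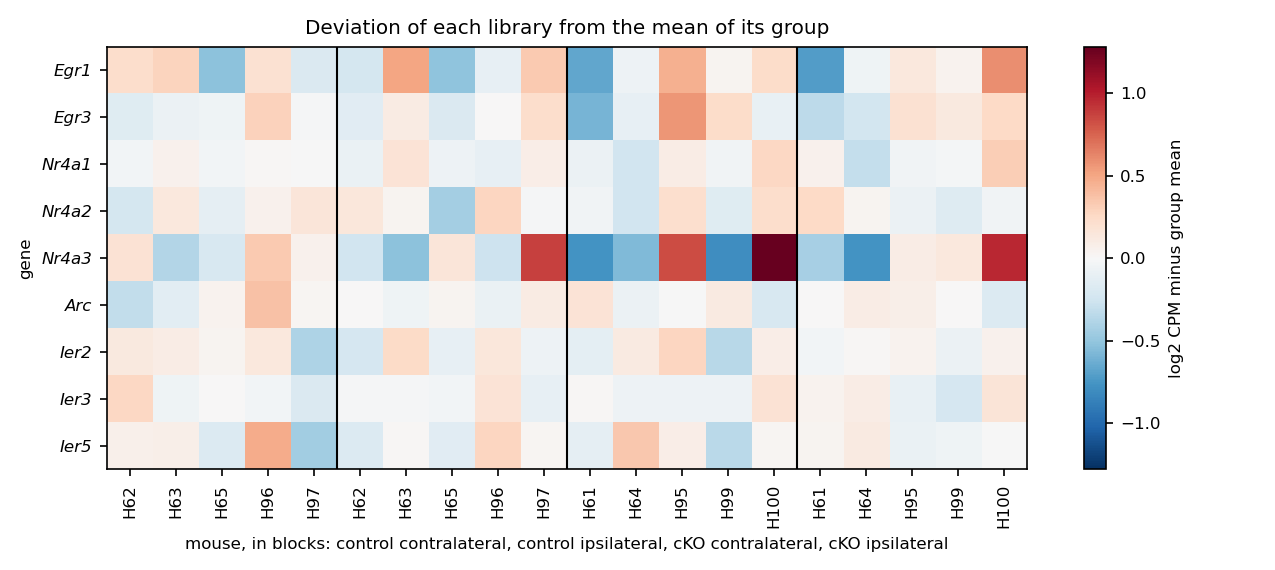
Heat map of log2 CPM of the 9 tested early genes in the 20 libraries after subtraction of each group's mean, with libraries in columns by group and genes in lines, on a colour scale that is symmetric about 0 and spans the largest deviation. Nr4a3 shows the strongest colours, above its group mean in both libraries of cKO mouse H100, the contralateral library of H95 and the ipsilateral library of control mouse H97, and below it in, among others, H99 contralaterally and H64 ipsilaterally.

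The genes whose libraries deviated most like those of each early gene were sought among 14342 genes with at least 1 CPM on average. For Egr1 they were Olfml2a (r 0.854), Plk2 (0.829), itself an activity-induced kinase gene, and Pcca (0.807). For Nr4a1 they were Etfbkmt (0.863), Errfi1 (0.832) and Spag7 (0.816), and for Nr4a3 Ppp1r1a (0.914), Tnfaip8l3 (0.842) and Podxl2 (0.820). Ier5 was most like Mapk13 (0.894), Tspo (0.888) and Apobec1 (0.883), and Ier2 like Scand1 (0.829), Bin3 (0.825) and Ggnbp1 (0.821). For Nr4a2 the third was Egr2 (0.789), after Otop1 (0.829) and Rasl11a (0.798). Arc was most like B3gnt4 (0.820), Egr3 like Ppp1r1b (0.813) and Ier3 like Slc16a3 (0.794). Each r is over 20 libraries and is given with no test.

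Other early-response genes, a list of 31 with the AP-1 genes Fos, Fosb and Junb among them, included many that rose with the lesion. In control mice 20 of the 31 were called higher and 0 lower, where 13.8% and 16% of all genes were. In cKO mice 19 were called higher and 2 lower, where 16.2% and 15.1% of all genes were. The median log2 fold changes were 0.51 in control and 0.58 in cKO mice. Nothing is read about the list from its lower calls. Csrnp1, a nuclear protein gene, went from 5.36 ± 0.224 to 23.2 ± 1.67 CPM in control (log2 fold change 2.11, SE 0.0772, edgeR adjusted p 4.231e-14) and rose by 2.12 in cKO. Gadd45g, a stress and growth arrest gene, rose by 1.84 and 1.88, and Ifrd1 by 1.501 and 1.41. The 2 that fell in cKO mice were Rgs2, a brake on G protein signals, by 0.30, and Gadd45b by 0.41 (edgeR adjusted p 0.0194), of which Gadd45b missed the threshold in 5 of 16 alternatives (among them without mouse H64, H95 or H100). Fos, the best known early gene, had 6.25 ± 1.49 and 9.84 ± 2.48 CPM in control (0.65, edgeR adjusted p 0.0150) and 4.38 ± 1.21 and 7.47 ± 0.968 CPM in cKO (0.77, adjusted p 0.00538). Fos and the other EGR genes were named after their values were seen: Egr2 changed by 0.21 and 0.19 and Egr4 by 0.12 and 0.58, none of them called.

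Upstream regulators, 26 genes for the kinases and factors that act on early genes, were called higher in 9 and lower in 3 cases in control mice and in 8 and 1 in cKO mice, with medians of 0.11 and 0.10. Over all genes tested, 13.8% were called higher and 16% lower in control mice, and 16.2% higher and 15.1% lower in cKO mice, so the lower calls in this list were no more frequent than among all genes. The cAMP-responsive factor gene Crem rose, with log2 fold changes of 1.08 (SE 0.0683, edgeR adjusted p 1.217e-10) and 1.00 (SE 0.0682, adjusted p 3.141e-10). Rps6ka1, a kinase that acts on CREB and serum response factor, rose by 0.91 and 0.87, and Mrtfa, a serum response factor partner, by 0.48 and 0.61. Mef2c fell by 0.58 and 0.60, and in control mice Mef2d fell by 0.20 and Mef2a by 0.13, the latter not called without mouse H97 (-0.09, edgeR adjusted p 0.103). Without mouse H99, 12 upstream regulators were called higher in cKO mice, and the share of all genes called in that fit is not given here. Activity-dependent effector genes, a list of 14, were called higher in 7 and lower in 3 cases in control and in 6 and 3 in cKO mice, with medians of 0.36 and 0.22. Their 3 lower calls of 14 are near the shares of 16% and 15.1% over all genes, and nothing is read from them about the list.

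Vgf, a neuropeptide precursor gene, was among the effectors that rose, with 1.53 in control and 1.94 in cKO mice. Bdnf, a neurotrophin gene, rose by 1.11 and 1.30, Cited2 by 1.13 and 0.71 and Gpr3 by 0.82 and 0.80, in control and cKO mice in that order. Inhba rose by 1.78 in control mice and had 0.58 in cKO mice (edgeR adjusted p 0.134). Nptx1, Nrn1 and Rasgrp1 fell in both genotypes, Rasgrp1 by 0.62 in control and 0.31 in cKO. Between genotypes, 2 genes of these 3 lists were called, both lower in cKO contralateral ganglia, where 0.0735% of all genes were called. Vgf averaged 145.6 ± 13.9 CPM in the control group there and 111.2 ± 4.41 CPM in the cKO group (-0.39, SE 0.0556, edgeR adjusted p 0.00483), and Plk3, an early-response kinase gene, 16.1 ± 1.43 and 12.9 ± 0.950 CPM (-0.32, SE 0.0586, adjusted p 0.0359). Over 15 alternatives the adjusted p of Plk3 ran from 4.603e-04 to 0.384, with 9 above the threshold, among them the omission of any mouse but H61 and H99. That of Vgf ran from 3.497e-07 to 0.317, with 2 above the threshold, those with only the contralateral libraries fitted and without mouse H95 (adjusted p 0.0563). DESeq2 also called 1 early-response gene and 1 upstream regulator higher contralaterally, and without mouse H99 edgeR called 4 early-response genes higher there, with 1 upstream regulator higher and 4 lower. The share of all genes called in those fits is not given here, and nothing is read about the lists from these counts. In ipsilateral ganglia and in the interaction, edgeR called 0 genes of these lists, where 0.007% and 0% of all genes were called. For the interaction of Vgf (0.41, SE 0.0783, edgeR adjusted p 0.485), 2 of 15 alternatives passed, DESeq2 (0.40, adjusted p 0.0284) and the fit without H99 (0.45, adjusted p 0.0455), over a range up to 0.844.

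Some markers of other cells moved beside these results. Of the satellite glia markers, Glul, the glutamine synthetase gene, rose by 0.46 on the log2 scale in control mice (edgeR adjusted p 2.467e-06) and by 0.30 in cKO mice (adjusted p 3.515e-04). Kcnj10, a potassium channel gene, rose by 0.30 (edgeR adjusted p 0.00671) and by 0.25 (adjusted p 0.0187). Macrophage markers summed to 135.7 to 250.4 and 155.9 to 292.0 CPM in control mice, with 1 of 13 called, Mrc1, and to 133.6 to 367.9 and 194.9 to 314.2 CPM in cKO mice, with 0 called. Of all genes, 13.8% were called higher in control and 16.2% in cKO mice, so calls among macrophage markers were no more frequent. Sensory neuron markers were called lower in 5 of 18 and higher in 0 in control, where 16% of all genes were called lower, and lower in 4 and higher in 1 in cKO mice, where 15.1% were. Of 7 endothelial markers, 2 were called higher in control, where 13.8% of all genes were. They were Tek, by 0.41 (edgeR adjusted p 0.0181), and Flt1, by 0.35 (adjusted p 0.0342). In cKO mice 0 endothelial markers were called, where 16.2% of all genes were called higher. Of 7 fibroblast markers, 1 was called, Dpt, which fell by 1.22 in cKO mice (edgeR adjusted p 0.0132), where 15.1% of all genes were called lower. Between genotypes contralaterally, fibroblast markers summed to 975.3 ± 240.6 CPM in control against 1573 ± 582.2 CPM in cKO libraries (SD, n = 5), and all 7 of them had higher estimates in cKO. So did all 13 macrophage, 8 neutrophil, 7 endothelial, 5 erythroid and 7 muscle markers, and edgeR called 0 of the 47 markers of these 6 lists. In the remaining lists, 4 of 18 sensory neuron, 3 of 6 satellite glia and 5 of 9 Schwann cell markers had higher estimates. The median log2 difference over all genes was -0.01. Of the 47, 7 had an unadjusted edgeR p under 0.05, as did 17.5% of all genes. Most of these 7 were fibroblast markers. Erythroid markers summed to 419.0 ± 165.8 CPM in control against 573.5 ± 200.6 CPM in cKO contralateral libraries. The muscle marker sum of contralateral libraries was 10.9 to 389.8 CPM among controls, while 1 cKO library reached 1747 CPM and the lowest had 8.13 CPM. Schwann cell markers summed to 3664 to 4677 CPM in control contralateral libraries, and 0 of 9 were called in any comparison. No marker of any list was at 0 counts in a group. The part of these shifts in the levels of the early genes was not tested.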

How the data were processed

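RNA was sequenced from L4 to L6 ganglia of 10 mice with a stranded mRNA kit and paired 150 bp reads, per the labels' protocols. The deposited table holds the authors' raw exonic counts per gene and library, unnormalised; all 20 value columns matched a library name and 0 were left out. HISAT2, Picard, mm10 and mm39 are named, with no roles, in the submitters' processing notes; the counting program and strand setting are not given in the sources used here, so no coordinates were taken from the counts. The deposited FPKM table was not used. A treatment field speaks of spinal cord injury, but the protocol's sciatic nerve transection was taken as the lesion. Where a title cut a mouse number short, the number in the library name was taken. The labels name no batch.

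Symbols came from GENCODE M21 by Ensembl identifier (51487 of 78258 identifiers, 98.1% of counts). No exon of another annotated gene overlapped an exon of any of the 10 genes on either strand. Counts were fitted in edgeR 4.0.16 (R 4.3.3; TMM; filterByExpr, minimum count 10, minimum total 15; robust quasi-likelihood F-test; 1 mean per group over 20 libraries), with Benjamini-Hochberg adjustment over 28564 genes and a threshold of 0.05. Log2 CPM used a prior count of 2; approximate 95% intervals used 16 residual degrees of freedom. Per-mouse responses were compared with exact permutation tests (SciPy 1.17.1). On simulated counts for control injury (28213 genes), the fit recovered 80 of 100 genes changed 1.5-fold and 96 of 100 changed 2-fold, with 8 false calls. Replicates differed by more than counting error (chi-square per degree of freedom 5.31 to 58.3 over 40 pairs).

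The 2 libraries of a mouse share its number in the labels, so the numbers pair the samples; across genes, the correlation of their deviations from group means had a median of 0.186 over 10 mice (-0.0546 to 0.361), and 7 exceeded 0.1. Alternatives were RLE factors, DESeq2 1.42.0, no filter, a mean of at least 1 CPM, the mouse as a replicate block, only the libraries compared, and leaving out each mouse. The genes, lists and tests were chosen with earlier results of these data known. Named were all 10 genes; of each list, in injury comparisons, up to 3 called genes with the highest and 3 with the lowest fold change (mean at least 1 CPM in the higher group); in genotype comparisons every called list gene; and the 3 genes most like each early gene by Pearson r. Promoter sequences are RefSeq's, GRCm38.p6. One marker gene is not reported here.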

Additional observations from a re-analysis of the deposited data

Results flagged for a closer look

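Within groups of 5 libraries, a value was looked at again where its gap to the nearest other value, as a share of the group's whole range, was above Dixon's critical value. Of 54 group and value combinations tested, 2 met this, and chance gives about 1 in 20, or 2.7. Egr3 in the control contralateral library of mouse H96, at 4.90 CPM against 3.57 to 3.93 CPM in the other 4, had a gap of 0.733 of the range. Ier2 in the control contralateral library of mouse H97, at 5.24 CPM against 7.06 to 7.57 CPM in the other 4, had a gap of 0.781 of the range. Without H96 or H97, Egr3 and Ier2 were still called higher ipsilaterally in control mice.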

How the results depend on the processing

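Counts of called early genes stayed within 1.5 times the main count in every alternative, and leaving out each mouse gave 5 to 6 genes in control injury, 4 to 6 in cKO injury and 0 in the other comparisons. With the mouse as a replicate block, 8 genes were called in control and 7 in cKO injury and 0 in the interaction; the block added Egr1 in both genotypes (0.48 and 0.47), Nr4a1 in control (0.14) and Nr4a2 in cKO mice (0.32), and changed no other call. Nr4a2 in cKO mice also passed in 8 further alternatives, and its adjusted p ran from 0.0238 to 0.216. Leaving out single mice turned the sign of 10 uncalled fold changes, none of which was called in any alternative; the cause was not tested. Over left-out mice these ran from -0.0805 to 0.378 (Nr4a3) in control injury, and from -0.00846 to 0.0618 (Nr4a1) in cKO injury. They ran from -0.149 to 0.00291 (Ier2) and -0.0288 to 0.101 (Nr4a1) between genotypes contralaterally, and ipsilaterally from -0.0747 to 0.0667 (Egr3), -0.204 to 0.409 (Nr4a3) and -0.0248 to 0.0712 (Ier3). In the interaction they ran from -0.133 to 0.108 (Egr1), -0.129 to 0.0386 (Nr4a2) and -0.0471 to 0.160 (Arc). The same alternatives for 33 named list results were added after seeing the data: 28 held in all of them, and 0 changed sign. Lower calls among other early-response genes in cKO mice were 2, but 1 with no filter, with only the libraries compared or without mouse H64, H95 or H100, and 3 with the block or without H99. Between genotypes contralaterally, DESeq2 called 2 effectors higher and 3 lower, and leaving out H99 gave 2 and 4, against 0 and 1. The share of all genes called in those fits is not given here, so nothing is read about the list from these counts. Npas4 rests on 0 to 16 counts per library; what limits the other genes was not separated gene by gene.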
